A study of Mus musculus with 6 samples.

Results

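The genes of the proteasome, the protease complex that degrades ubiquitin-tagged proteins, were examined in hepatocytes with and without the pro-apoptotic gene Bim. They were chosen by symbol as the protein-coding genes named Psma, Psmb, Psmc or Psmd with a number, leaving out the interferon-induced catalytic subunits Psmb8, Psmb9 and Psmb10. The choice gave 37 of the 48353 genes in the files. Of these, 36 encode subunits or assembly chaperones. The remaining gene, Psmc3ip, fits by its symbol but encodes a partner of meiotic recombinases, and its own values are given apart. It is still included wherever the 37 genes, or those read in every library, are counted or averaged as proteasome genes. Polyadenylated RNA of C57BL/6 mouse hepatocytes, isolated by collagenase perfusion, was sequenced from 3 Bim knock-out and 3 wild-type samples. Knock-out animals came from a cross of Bim lox/lox mice with Alb-Cre mice, in which the albumin promoter drives Cre in hepatocytes, and the labels used here do not say whether the wild-type mice carried either allele. The protocol covers male mice fed chow or a high-fat diet without tying a diet or an age to a sample. Separate animals are not stated, so a p-value reflects only how far these samples spread, which may be technical.

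Estimated reads per library came to between 25335211 and 31130519, and the values of each gene are given in the order of replicates 1 to 3. The targeted gene, Bcl2l11, had 0, 0 and 0 reads in the knock-out libraries against 0, 680 and 478 in the wild-type libraries, so it does not separate wild-type replicate 1 from the knock-out libraries. Of 11 hepatocyte markers in the files, 9 were above 0 in every library, Tat was at 0 in all 6, and Hnf4a was at 0 in knock-out replicate 3 only. Of 12 macrophage markers, 11 were above 0 in wild-type replicate 1 against 6 or 7 in the other libraries. The mean log2 level of the 6 macrophage markers above 0 throughout was 7.99 in wild-type replicate 1, 3.22 to 4.28 in knock-out and 3.11 to 4.09 in the other two wild-type libraries. The 5 interferon-response genes above 0 throughout lay at 9.06 in knock-out replicate 1 and 8.89 in wild-type replicate 2, against 4.50 to 6.17 elsewhere. All 6 stellate cell markers and 4 of 6 endothelial markers were at 0 in every library. The remaining endothelial markers, Stab2 (994 reads) and Cdh5 (2154), were read in wild-type replicate 1 only.

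The proteasome consists of a barrel-shaped core particle and regulatory particles that cap its ends. The alpha subunits (Psma genes) form the outer rings of the core and gate its entrance, while the beta subunits (Psmb genes) form the inner rings, where Psmb5, Psmb6 and Psmb7 carry the peptidase sites. In the regulatory particle, a ring of ATPases (Psmc genes) unfolds substrates and threads them into the core, and non-ATPase subunits (Psmd genes) bind ubiquitin chains, remove them and hold the particle together. Subunits are needed in fixed proportions, and in mammals the transcription factor encoded by Nfe2l1 raises their genes together when the proteasome is impaired.

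Promoter sequences are shown for 3 subunits whose locus has 1 annotated transcript and which had no zeros. Psmb1, another such subunit, was not matched. Each line gives the 250 bases before the RefSeq start on GRCm38.p6, 5′ to 3′ on the gene's strand. Capitals mark TTCCGG (the core of ETS family sites), CCAAT (the box bound by NF-Y) and TGACNNNGC (the core of the antioxidant response element), on either strand.
Psma2, chr13:14612992-14613241, plus strand: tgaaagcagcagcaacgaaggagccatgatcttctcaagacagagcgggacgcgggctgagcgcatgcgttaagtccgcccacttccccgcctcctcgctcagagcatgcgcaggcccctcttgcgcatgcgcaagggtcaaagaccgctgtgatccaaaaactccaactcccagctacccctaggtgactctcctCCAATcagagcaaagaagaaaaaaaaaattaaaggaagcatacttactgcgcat
Psmc1, chr12:100109952-100110201, plus strand: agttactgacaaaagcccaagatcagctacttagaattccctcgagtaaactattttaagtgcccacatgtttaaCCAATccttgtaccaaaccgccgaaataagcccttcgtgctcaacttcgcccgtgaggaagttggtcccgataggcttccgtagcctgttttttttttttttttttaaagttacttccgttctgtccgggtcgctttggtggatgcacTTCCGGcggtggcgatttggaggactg
Psmc6, chr14:45329574-45329823, plus strand: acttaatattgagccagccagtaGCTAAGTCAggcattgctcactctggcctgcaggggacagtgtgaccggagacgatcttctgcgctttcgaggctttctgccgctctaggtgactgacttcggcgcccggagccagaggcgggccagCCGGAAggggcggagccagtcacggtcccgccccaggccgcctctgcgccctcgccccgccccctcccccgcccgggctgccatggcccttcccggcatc
The CCAAT of Psma2 ends 50 bases before the start, and the TTCCGG of Psmc1 lies 27 to 22 bases before it. The promoter of Psmc6 held TTCCGG and TGACNNNGC, both on the minus strand. Over the 32 windows of the 30 matched genes, 15 (46.9%) held TTCCGG, against 12.03% of all 32851 windows of this length. CCAAT was present in 13 windows (40.6%, against 33.8% of all), and TGACNNNGC in 5 (15.6%, against 10.2%), those of Psmb5, Psmb6, Psmc6, Psmd9 and Psmd12. The 3 motifs share no overlap in the printed windows, and a match describes the letters alone.

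Nearly every proteasome gene was read in hepatocytes, and about as many of them were listed at 0 in each genotype. Of the 37 genes, 19 had reads in all 6 libraries, 17 had reads in some libraries and exact zeros in others, and Psmb11 was at 0 in all 6. Psmb11 encodes the catalytic beta subunit restricted to cortical epithelium of the thymus. Zeros made up 26 of 111 values in knock-out and 25 of 111 in wild-type. Where the 17 partly listed genes were read, they had between 1008 and 7886 reads, and their highest and lowest RPM above 0 (estimated reads scaled to the total of the library) differed by a median factor of 1.17.

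**Figure D1:**
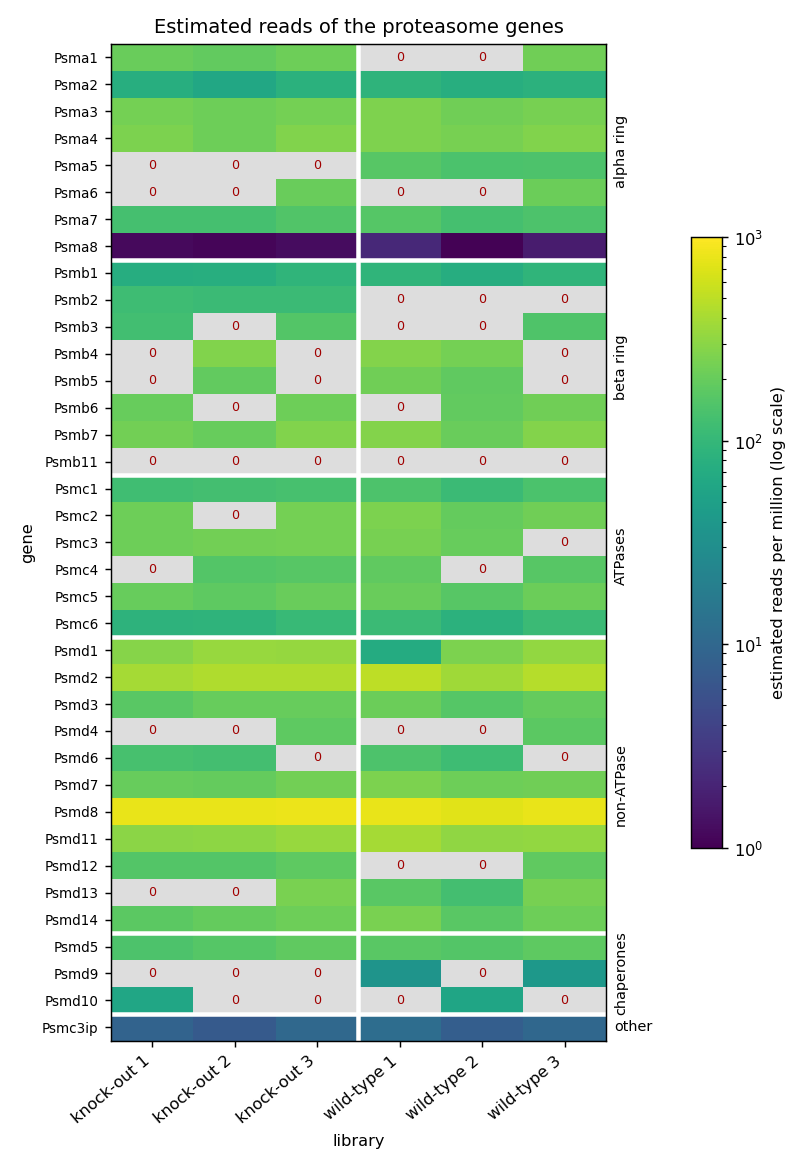
Heat map of RPM (logarithmic colour scale) for the 37 genes, in lines grouped by role in the complex, and the 6 libraries, in columns, with values listed at 0 in grey and marked 0. Grey cells stand in both genotypes (26 in knock-out, 25 in wild-type), and the highest and lowest RPM above 0 of a gene lie within a factor of 1.44 except for Psmd1 (4.81), Psma8 (2.13), Psmd13 (1.96) and Psmc3ip (1.70).

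Apart from Psmb11, zeros appeared only at loci with more than 1 annotated transcript. Leaving out Psmb11, 0 of 30 values were at 0 at the 5 loci with 1 transcript, 17 of 54 (31.5%) at loci with 2 to 3, 17 of 66 (25.8%) at loci with 4 to 6, and 11 of 66 (16.7%) at loci with 7 or more. For all loci read in at least 3 libraries, with a median above 100 reads, the shares were 0.0156%, 18.5%, 18.5% and 17.4%. The 2 sets are not alike, since that cut was not applied to the proteasome genes. Psma6, Psmd4, Psmd9 and Psmd10, each read in 2 libraries, would not meet it. Nor would Psma8, 1 of the 5 genes at loci with 1 transcript, which had 30 to 62 reads per library. The shares of all loci also count reads of the whole locus, by which 9 of 66 proteasome values (13.6%) were at 0 at loci with 7 or more. Of those 9 values, Psmd4 and Psmd9, which would not meet the cut, held 4 each, and Psmc3 held 1. Since an exact zero at a locus with several transcripts may be an estimate that was not made, genes with zeros are described by their values in each library, without a mean or a fold. The 17 genes showed 14 different sets of libraries with reads. Psmb4 and Psmb5 shared a set (knock-out replicate 2 and wild-type replicates 1 and 2), as did Psma6 and Psmd4 (replicate 3 of each genotype) and Psma1 and Psmd12 (all knock-out libraries and wild-type replicate 3).

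**Figure D2:**
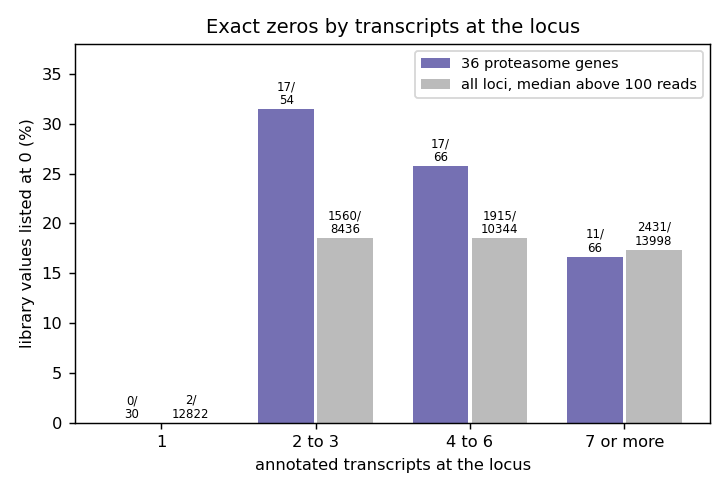
Bars give the percent of library values listed at 0, with the numbers above them, by the number of transcripts annotated at the locus, for the proteasome genes other than Psmb11 and for all loci with a median above 100 reads. Both sets are at or near 0 where the locus has 1 transcript (0% and 0.0156%) and, as drawn, above 16% in every class with more. The proteasome bars count reads of the gene, with no cut on libraries read or on median reads. The other bars count reads of the locus, leaving out loci read in few libraries. By locus reads the proteasome share at 7 or more transcripts is 13.6%, still without the cut. Of its zeros, 4 each belong to Psmd4 and Psmd9, which would not meet the cut, and 1 to Psmc3.

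Of the 8 alpha ring genes, 5 were read in all 6 libraries. Psma2 had 2156, 1750 and 2102 reads across the knock-outs and 2532, 2360 and 2368 across the wild-types, all on its single transcript of 944 bases. These correspond to 107 ± 12.1 RPKM in knock-out against 121 ± 6.96 in wild-type (n = 3 each, SD), reads scaled to transcript length and library size. Its RPKM overlapped between the genotypes, with 115.7 in knock-out replicate 3 and 114.2 in wild-type replicate 2. Psma4 measured 293 ± 27.4 RPKM in knock-out against 308 ± 12.6 in wild-type (n = 3 each, SD). Psma3 had 6040 to 6589 reads in the knock-out libraries against 6858 to 7348 in the wild-type libraries, and Psma7 had 3628 to 3902 and 4056 to 4520. In RPM, which scale reads to library size, the ranges of the genotypes overlapped for both genes.

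The other alpha ring genes that form the standard ring had zeros. Psma1 had 5796, 5284 and 5490 reads across the knock-outs and 0, 0 and 6370 across the wild-types. Psma6 was read only in replicate 3 of each genotype, with 5214 reads in the knock-out and 6020 in the wild-type library. Psma5 (chromosome 3, 108256926 to 108279974, plus strand of GRCm38) was at 0 in every knock-out library, with 4758, 4345 and 4136 reads across the wild-types, all on the protein-coding transcript of 1239 bases. Psma8, the alpha subunit of the testis proteasome, stood far below the rest, at 34, 30 and 32 reads across the knock-outs and 62, 32 and 48 across the wild-types. That is 0.956 ± 0.054 RPKM and 1.33 ± 0.445 (n = 3 each, SD), the lowest level among the 19 fully read genes.

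Among the beta ring genes, Psmb1 and Psmb7 were read throughout. Psmb1, a structural subunit, had 2112, 2100 and 2304 reads in the knock-out libraries against 2618, 2306 and 2590 in the wild-type libraries, or 106 ± 8.14 and 115 ± 11.3 RPKM (n = 3 each, SD). Psmb7, which carries the trypsin-like site, had 6438, 5490 and 6937 reads across the knock-outs and 7761, 6365 and 7904 across the wild-types. Its levels were 245 ± 27.3 and 225 ± 36.7 RPKM (n = 3 each, SD), so the order of the genotype means differed between reads and RPKM. In the wild-type libraries 2477 to 4192 of its reads were on a retained-intron transcript of 2849 bases, against 934 to 1596 in the knock-outs, and a long transcript lowers the RPKM of the same reads.

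The other catalytic subunits had zeros in both genotypes. Psmb5, which carries the chymotrypsin-like site and is the main target of proteasome inhibitors, had 0, 5227 and 0 reads in the knock-out libraries against 6247, 5764 and 0 in the wild-type libraries. Psmb6, which carries the caspase-like site, had 5604, 0 and 5544 across the knock-outs and 0, 5886 and 6212 across the wild-types. Every library had reads of Psmb5 or Psmb6, and wild-type replicate 2 was the only one with both. The structural Psmb3 had 3536, 0 and 3951 reads in the knock-out libraries against 0, 0 and 4182 in the wild-type libraries, and Psmb4 had 0, 7534 and 0 across the knock-outs and 7886, 7442 and 0 across the wild-types. Psmb2 (chromosome 4, 126677630 to 126709714, plus strand) had 3312, 3090 and 2822 reads across the knock-outs and was at 0 in the 3 wild-types. Its reads were on a processed transcript of 708 bases in knock-out replicates 1 and 3 and on the protein-coding transcript of 859 bases in replicate 2.

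Of the 6 ATPase genes, Psmc1, Psmc5 and Psmc6 were read in all libraries. Psmc1 measured 114 ± 4.06 RPKM in knock-out against 120 ± 13.2 in wild-type (n = 3 each, SD), from 3366, 3466 and 3432 reads and 4058, 3468 and 3948. Psmc6 measured 82.0 ± 5.56 and 90.5 ± 12.1 RPKM (n = 3 each, SD). Psmc5 measured 194 ± 12.5 and 192 ± 18.6 RPKM (n = 3 each, SD). For these ATPases the wild-type values spanned the knock-out range, with wild-type replicate 2 the lowest of the 6 libraries in RPKM for each. Psmc2 was at 0 only in knock-out replicate 2, with 6096 and 5918 reads in the other knock-out libraries and 7330, 6060 and 6290 in wild-type. Psmc3 was at 0 only in wild-type replicate 3, with 6096, 6302 and 6025 reads across the knock-outs, then 6832 and 6327 in the other wild-type libraries. Psmc4 had 0, 4310 and 4248 reads in the knock-out libraries against 5170, 0 and 4678 in the wild-type libraries.

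Of the 11 non-ATPase genes, 7 were read in all libraries. Psmd2, a large scaffold that holds ubiquitin receptors, had 11082, 12007 and 11147 reads across the knock-outs and 14126, 11598 and 13075 across the wild-types, or 195 ± 9.84 and 207 ± 25.4 RPKM (n = 3 each, SD). Psmd14, the deubiquitinase that cuts chains off arriving substrates, measured 173 ± 14.7 RPKM in knock-out against 190 ± 29.4 in wild-type (n = 3 each, SD). Both had their highest value in wild-type replicate 1 and overlapped between the genotypes. Psmd7, the partner of Psmd14, measured 179.4, 170.8 and 189.0 RPKM in the knock-out libraries against 218.6, 194.0 and 191.2 in the wild-type libraries. It was the 1 fully read gene of the 19 whose RPKM did not overlap between the genotypes, with knock-out lower. Over all 5538 tested genes read in every library, 5.94% did not overlap, and 2.96% had all knock-out values lower. In RPM, 0 of the 19 separated the genotypes, against 3.81% of those genes.

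Psmd8, a lid subunit of the regulatory particle, had the highest level and the largest spread in RPKM of the fully read genes. Its reads were nearly constant, at 22306, 22230 and 20820 across the knock-outs and 22610, 22558 and 22518 across the wild-types. Its RPKM ran from 545.5 in knock-out replicate 3 to 2219.9 in wild-type replicate 3, a factor of 4.07, where the RPM differed by a factor of 1.13. In each library all of its reads were on 1 transcript: of 668 bases in knock-out replicate 1, 1983 in knock-out replicates 2 and 3, 1391 in wild-type replicates 1 and 2, and 494 in wild-type replicate 3. The 668-base and 494-base transcripts are annotated as retained introns. Psmd11, which stabilises the contact between core and cap, had 8480, 8472 and 8744 reads in the knock-out libraries against 11017, 9796 and 9299 in the wild-type libraries, spread over up to 5 of its transcripts per library. Psmd3 measured 115 ± 40.2 RPKM in knock-out against 91.3 ± 9.52 in wild-type (n = 3 each, SD).

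**Figure D3:**
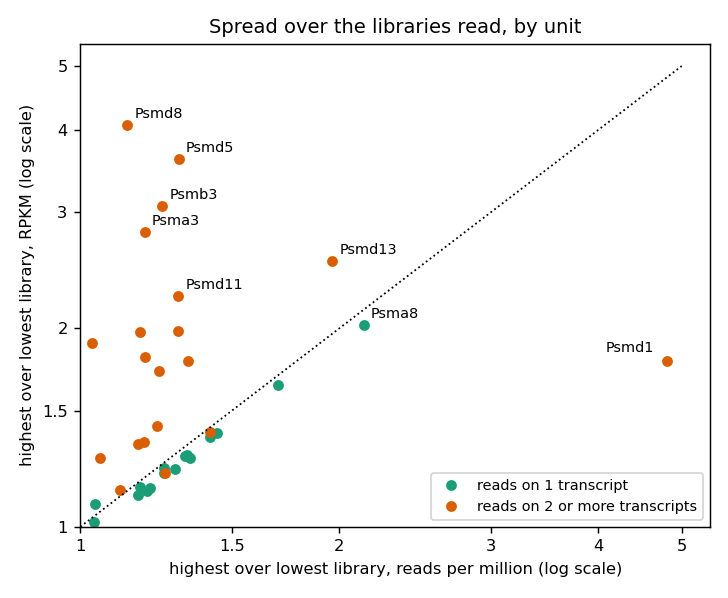
Highest value divided by lowest value over the libraries in which a gene was read, in RPM (horizontal, log scale) and RPKM (vertical, log scale), for the 36 genes with reads. Green points had reads on 1 transcript, orange points on several, and on the dotted line both factors are equal. Psmd8 has a factor of 1.13 in RPM and 4.07 in RPKM, and Psmd1 one of 4.81 in RPM and 1.78 in RPKM.

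Psmd1 and Psmd13 share a locus with neighbours under which part of the reads was listed. Psmd1, the other large scaffold, had 8080, 9404 and 8534 reads across the knock-outs and 1996, 7868 and 9171 across the wild-types. In wild-type replicate 1, where it was low, 7052 reads were listed for Armc9, which had 0 in the other libraries. The whole locus had 8080, 9620 and 8534 reads in the knock-out libraries against 9048, 7868 and 10068 in the wild-type libraries, a limma difference of 0.07 in log2 RPM (95% interval -0.30 to 0.44, adjusted p = 0.999 over 5501 loci). Psmd13 had 0, 0 and 6242 reads across the knock-outs and 4771, 3908 and 6836 across the wild-types. Where it was at 0, Gm15542 at the same locus had 6306 and 6301 reads, and the locus as a whole had 6306, 6301 and 6242 in the knock-out libraries against 6896, 6505 and 7122 in the wild-type libraries. For these genes the sum over the locus was steadier than the gene.

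**Figure D4:**
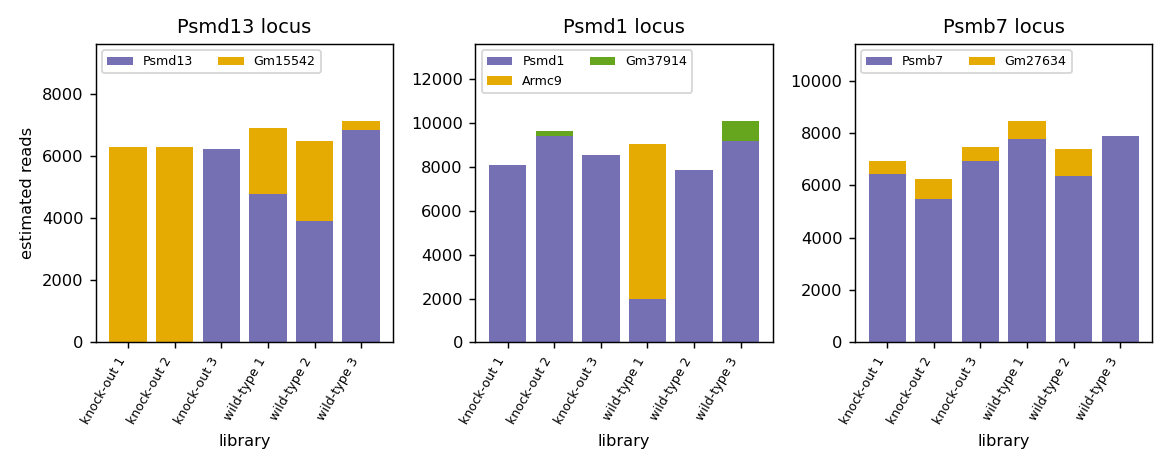
Estimated reads at the loci of Psmd1, Psmd13 and Psmb7 in the 6 libraries, as bars stacked by the gene the reads were listed under. At the Psmd13 locus the totals lie between 6242 and 7122 in every library, while the Psmd13 portion runs from 0 to 6836.

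The other non-ATPase genes had zeros. Psmd12, a lid subunit, had 4490, 4382 and 4586 reads across the knock-outs and 0, 0 and 5224 across the wild-types. Psmd6 had 3738, 3514 and 0 in the knock-out libraries against 4074, 3656 and 0 in the wild-type libraries. Psmd4, which encodes a ubiquitin receptor of the particle, was read only in replicate 3 of each genotype, with 4606 reads in the knock-out and 4954 in the wild-type library. Psmd6 and Psmd4 were at 0 in as many knock-out as wild-type libraries, whereas Psmd12 was at 0 in wild-type libraries only.

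The assembly chaperones help to build the regulatory particle and leave the finished complex. Psmd5 had 4056, 4484 and 4732 reads in the knock-out libraries against 4808, 4838 and 5100 in the wild-type libraries, while its RPKM ran from 61.8 to 222.9 within knock-out and from 63.0 to 208.1 within wild-type. Psmd10, also known as gankyrin, was read only in knock-out replicate 1 (1690 reads) and wild-type replicate 2 (1796), the libraries in which the interferon-response genes were highest. What part those libraries' state has in that listing was not tested, and the locus has 2 annotated transcripts. Psmd9 was at 0 in every knock-out library, with 1008, 0 and 1116 reads across the wild-types. Psmc3ip, which is no subunit, was read in every library at 9.26 ± 1.52 RPKM in knock-out against 10.5 ± 1.93 in wild-type (n = 3 each, SD).

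The comparison of the genotypes called 2 of the 37 genes, Psma5 and Psmb2, each with a limma adjusted p of 0.000148. Over all genes 87 of 11021 tested were called, which is 0.789%, with 0.372% higher in knock-out, the side of Psmb2, and 0.417% lower, the side of Psma5. The filter on low values passed 36 of the 37, all but Psmb11. Psma5 and Psmb2 passed it through the libraries of 1 genotype and are at 0 in all libraries of the other, at loci with 2 and 3 annotated transcripts, so no fold is given. With the replicate number as a block both had an adjusted p of 0.0505, and without wild-type replicate 3 the call extended to Psma1 and Psmd12 (4 genes in all), while the calls over all genes went from 87 to 182.

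Among the 19 genes read in every library, no difference between the genotypes passed the test. With limma over the 5538 tested genes read in all 6 libraries, 0 were called (0%) and 130 had an unadjusted p below 0.05 (2.35%), of which 0 were proteasome genes. Knock-out minus wild-type in log2(RPKM + 1) was negative for 14 of the 19, Psmc3ip (-0.16) among them, and positive for 5, with a median of -0.11. Over all 5538 genes 49.8% were negative and the median was 0.00. In RPM 15 of the 19 were negative with a median of -0.07, against 46.4% and 0.01 over all. Quantile normalization moved the median of all genes to 0.12 and that of the proteasome genes to -0.05, and the median of the 19 was likewise -0.05 without wild-type replicate 1.

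The 4 smallest unadjusted p-values among these genes belonged to Psmd1, Psmd11, Psma8 and Psma2, with limma adjusted p of 0.996 each. Psmd1 measured 156 ± 26.5 RPKM in knock-out against 120 ± 21.4 in wild-type (n = 3 each, SD), a log2 difference of 0.38 with a 95% interval from -0.11 to 0.87. Psmd11 measured 233.5, 294.5 and 331.6 RPKM across the knock-outs and 355.1, 522.7 and 315.8 across the wild-types, a difference of -0.45 (-1.05 to 0.15). Psma8 differed by -0.23 (-0.64 to 0.17), and by 0.20 with quantile normalization. For Psma2 the difference was -0.18 (-0.52 to 0.16). The interval of Psmd7, whose RPKM did not overlap, ran from -0.47 to 0.15. The interval lay within 2-fold of RPKM + 1 in both directions for 15, against 78.6% of all fully read genes, and within 2-fold of RPM + 1 for 18, the exception being Psmd1. In bulk RNA, fewer cells of a type and less RNA per cell cannot be told apart.

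Proteasome gene levels differed more between the wild-type libraries than between the genotype means. The mean log2 level of the 19 genes was 6.91, 6.87 and 7.0 in knock-out (6.93 ± 0.07, SD, n = 3) and 7.11, 6.82 and 7.09 in wild-type (7.01 ± 0.16, SD, n = 3). Wild-type replicates 1 and 2 were the highest and the lowest of all 6, so the knock-out values lay inside the wild-type range. Taken as the deviation of each gene from its own mean in log2 RPM, the median of the 19 was -0.11, -0.11 and 0.10 in the knock-out libraries against 0.18, -0.16 and 0.11 in the wild-type libraries. The same medians over all fully read genes were -0.06, -0.02 and 0.10 across the knock-outs and 0.07, -0.15 and 0.07 across the wild-types. In knock-out replicate 3 and wild-type replicates 1 and 3, 18, 18 and 19 of the 19 genes were above their own mean, against 81.1%, 60.5% and 68.8% of all fully read genes. Albumin took 2.93%, 2.49% and 2.23% of the reads in those libraries and 3.41%, 4.6% and 5.09% in knock-out replicates 1 and 2 and wild-type replicate 2. Its part in these levels was not tested, nor was that of the macrophage markers, which were highest in wild-type replicate 1.

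**Figure D5:**
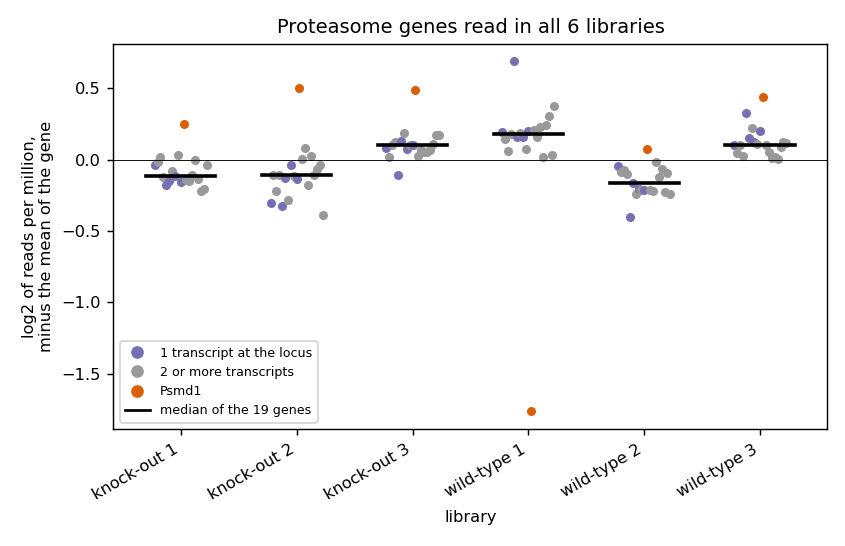
Deviation of each of the 19 fully read genes from its own mean over the 6 libraries, in log2 RPM, by library, with Psmd1 in orange, genes with 1 transcript at the locus in purple and a bar at the median. Nearly all points of knock-out replicate 3 and wild-type replicates 1 and 3 lie above 0 (18, 18 and 19 of 19), and 1 point of wild-type replicate 2 does.

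Wild-type replicate 1 had the highest RPM for 12 of the 19 genes, where it was the highest for 33.1% of all fully read genes. Wild-type replicate 2 was the lowest for 9 of the 19, against 40.6% of all. Psmd1 was the 1 gene lowest in wild-type replicate 1, where most reads of its locus were listed under Armc9. RPKM was also summed over Psma2, Psmb1, Psmc1 and Psmc6, the subunits other than Psma8 and Psmb11 whose locus has a single annotated transcript. This sum, without any choice between transcripts, also put wild-type replicates 1 and 3 and knock-out replicate 3 highest. It was 401.6, 390.4 and 437.2 in the knock-out libraries against 472.9, 396.6 and 468.8 in the wild-type libraries. The genotype difference in mean log2 level of the 19 genes was -0.08, and with 1 library left out at a time it ran from -0.17 (without wild-type replicate 2) to -0.03 (without wild-type replicate 1).

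Which transcript the reads were listed under differed between libraries for many subunits. Of the 174 annotated transcripts of these genes, 73 had reads in any library. Protein-coding transcripts held 63.8%, 77.0% and 76.1% of the reads across the knock-outs and 69.1%, 77.4% and 63.6% across the wild-types, the others being retained introns, processed transcripts or targets of nonsense-mediated decay. The leading transcript differed between libraries in 17 of the 30 genes with several transcripts and at least 2 libraries read. For the 10 fully read genes with reads on 1 transcript, the highest RPKM was a median of 1.28 times the lowest, and the highest RPM 1.34 times. For the 9 with reads on several it was 1.98 times in RPKM and 1.30 times in RPM. All reads of Psmb4 were on a retained-intron transcript of 666 bases, and those of Psmc5 were mostly on a transcript marked for nonsense-mediated decay (1394 bases). Strand use is not known, and Psmb7, Psmc3, Psmd1, Psmd5, Psmd9, Psmd13 and Psmc3ip overlap a gene on the opposite strand. Their reads in the shared bases may therefore not be told apart from those of Nek6, Slc39a13, Htr2b, Cutal, Hpd, Sirt3 and Mlx, in that order.

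Some processed copies of subunit genes elsewhere in the genome were listed with reads. Gm12989 (a copy of Psma5), Gm4742 and Gm5406 (of Psma3) and Gm6542 (of Psma4) were at 0 in every library. Another copy of Psma3, Gm13835, matched at 100% over 665 bases. It had 75 reads in knock-out replicate 1, 52 in wild-type replicate 3 and 0 in the others. Gm9575 (of Psmc1) had 16 to 26 reads per library, and Gm5422 (of Psmd2) had 38 to 48. Gm3375, a processed pseudogene on chromosome 7 (3181093 to 3181888, GRCm38) with 1 annotated transcript, matched the Psmb5 transcript at 98.9% over 796 bases. It had 100, 98 and 104 reads in the knock-out libraries against 114, 104 and 116 in the wild-type libraries, also in the 3 libraries in which Psmb5 was at 0. Gm8394, on chromosome 10 (85313488 to 85314439), matched Psma5 at 98.6% over 952 bases. It had 18, 18 and 22 reads in knock-out, where Psma5 was at 0, and 24, 26 and 16 in wild-type. Reads from a subunit and from such a copy cannot be fully separated, and these values do not give the level of Psmb5 or Psma5. Psmd11 had the relative with the most reads, A730017L22Rik, a noncoding gene with a transcript 97.9% identical over 1501 bases. The whole gene, at a locus with 21 annotated transcripts, had 5700, 5887 and 5289 reads across the knock-outs and 4384, 5460 and 5869 across the wild-types. Within its coordinates lies Gm14048, a processed pseudogene that matched Psmd11 at 97.95% over 1269 bases. Gm14048 had 48, 68 and 52 reads across the knock-outs and 58, 58 and 72 across the wild-types. How many reads of A730017L22Rik fall on the matching bases was not tested. The division of reads between Psmd11 and these relatives is therefore uncertain.

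A wider list of the pathway held 38 other genes in the files (immunoproteasome, activators, core assembly, further regulatory particle proteins, regulators and ubiquitin genes), of which 37 were tested with limma. None was called higher (0) or lower (0) in knock-out, where 0.789% of all genes tested were called, and 1 had an unadjusted p below 0.05, Rps27a, which encodes ubiquitin fused to a ribosomal protein and is named here after its value was seen. Nfe2l1, the regulator of subunit transcription, had 12323, 11687 and 10041 reads in the knock-out libraries against 12298, 10307 and 11070 in the wild-type libraries, or 133 ± 16.6 and 126 ± 13.8 RPKM (n = 3 each, SD). Pomp, the chaperone of core maturation, had 5787, 5139 and 5165 reads across the knock-outs and 5009, 5964 and 5701 across the wild-types, while its RPKM ran from 69.7 to 643 within knock-out.

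The inducible subunits and their activator varied with the library. Psmb8 had 3896, 0 and 1932 reads in the knock-out libraries against 1388, 4022 and 0 in the wild-type libraries. Psmb9 had 1626, 0 and 616 across the knock-outs and 0, 1842 and 734 across the wild-types, and Psmb10 had 3690, 2632 and 0 in the knock-out libraries against 1098, 3982 and 2134 in the wild-type libraries. In reads, each was highest in knock-out replicate 1 and wild-type replicate 2, in which the interferon-response genes were highest too. The part of that in these values was not tested. In RPKM, Psmb10 was lower in wild-type replicate 2 (138.7) than in wild-type replicate 3 (160.9). Psme1, a subunit of the interferon-induced activator of the core, had 4616, 4110 and 3306 reads across the knock-outs and 2090, 4860 and 3994 across the wild-types, again highest in the same pair of libraries. Psme2, its partner, was read only in knock-out replicate 1 (5691) and wild-type replicate 3 (4753). Psme3, the nuclear activator, was steadier, at 88.8 ± 5.78 RPKM in knock-out against 85.8 ± 7.36 in wild-type (n = 3 each, SD). Of the 19 fully read genes, 0 had their highest RPM in knock-out replicate 1, against 8.13% of all fully read genes, and 0 in wild-type replicate 2, against 5.69%.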

How the data were processed

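Polyadenylated RNA of 3 Bim knock-out and 3 wild-type hepatocyte samples was sequenced as single-end libraries, per the labels. Alignment used TopHat2 (version 2) on GRCm38, per the submitters' processing notes. The sources used here do not name the tool that divided reads among transcripts or say whether it used strand. The deposited files give, for each of 118492 transcripts, estimated reads and their RPKM (neither of them whole read counts), which were summed per gene. Symbols matched 47993 genes and left 360 unmatched. Genes averaging 1 RPKM or more were fitted as log2(RPKM + 1) with limma 3.58.1 (R 4.3.3, mean-variance trend, two-sided, all 6 libraries), and a Benjamini-Hochberg adjusted p below 0.05 over all genes was called. Low genes appear to change less on this scale than they do. The fit was repeated for genes above 0 in all 6 libraries. Its script was tested on simulated data. Same-numbered libraries of the genotypes did not deviate together, so numbers were not taken as pairs. Members, lists and tests were chosen with earlier results of these data known. Values in every library are given for called and catalytic subunits, the 4 smallest p, the highest and lowest level, and members with 1 library, or all libraries, at 0. Further members are given because they belong to the complex. Transcript types came from GENCODE, near copies (at least 95% over 500 bases) from BLAST 2.17.0, promoters from RefSeq. Alternatives covered pseudocount, filter, scaling, zeros, the block and left-out libraries. Tables were made with Python 3.11.15 and pandas 2.3.3.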

Additional observations from a re-analysis of the deposited data

How the results depend on the processing

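Of 37 proteasome genes 2 were called, and of all genes 87. With the replicate number as a block, with only genes above 0 in all 6 libraries, and with exact zeros taken as missing, 0 proteasome genes and 0 genes over all were called. Psma5 and Psmb2 had an adjusted p of 0.0505 each with the block. Same-numbered libraries had correlations of deviations of -0.16, -0.05 and -0.01, below those of knock-out replicates 1, 2 and 3 with wild-type replicates 2, 3 and 1 (0.31, 0.15 and 0.22), so the block rests on a number alone. Leaving out 1 library gave 182 to 207 calls over all genes and 2 to 4 among the proteasome genes: Psma1 and Psmd12 were added without wild-type replicate 3, Psmd13 without knock-out replicate 3 and Psmd9 without wild-type replicate 2. Without knock-out replicate 1 and wild-type replicate 2, the libraries highest in interferon genes, there were 312 and 3 calls, an alternative chosen after seeing the data, as was the sum over the locus. Differences changed sign for Psmb7 (0.13, but -0.12 in RPM and -0.11 with voom), Psma8 (0.20 with quantile normalization) and Psmd8 (-0.44, but 0.056 in RPM, 0.058 with voom and 0.076 without wild-type replicate 3). Without the pair of interferon-high libraries that of Psmd8 was -1.24. For Psmb7 and Psmd8 RPM leave out transcript length, and for Psma8 and for Psmd8 without wild-type replicate 3 the cause was not tested. In the fit of fully read genes 0 proteasome genes were called under every alternative counted, which leave out voom and the changed filters. Between 12 and 16 of the 19 had a negative difference, with voom and the filters included. The filter at a mean of 5 RPKM drops Psma8 from the 19. The mean level difference stayed between -0.17 and -0.03. With 3 libraries a genotype the interval reached past 2-fold for Psma3, Psmd5, Psmd8 and Psmd11 in RPKM and for Psmd1 in RPM.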
